A study of Mus musculus with 200 samples.

Results

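This is an account of 6 metabotropic glutamate receptor genes, Grm2, Grm3, Grm4, Grm5, Grm7 and Grm8, in the mouse brain after closed-head injury (CHI), in which a midline impact is delivered to the intact skull under anaesthesia. The genes were taken by symbol from a list made with earlier results of these data known, and each matched exactly 1 of the 56941 genes in the deposited tables. One hemisphere of each of 200 mice was sequenced in bulk. Of these, 67 mice had sham surgery, which was the same procedure without the impact, and the others CHI. The mice were killed 9, 24 or 72 h later, so that with 4 strains there were 24 groups.

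There were 43 CHI and 18 sham mice of the strain C57BL/6J. A further 37 CHI and 18 sham mice were labelled IL-1R1 gKO, 33 and 17 were labelled IL-1R1 eRestore, and 20 and 14 were labelled IL-1R1 nRestore. The labels do not spell out these names, and the driver of any allele is not given in the sources used here. Each strain had its own sham mice at each time point. At 9 h the groups held 15 CHI and 6 sham C57BL/6J mice, 13 and 6 IL-1R1 gKO mice, 12 and 6 IL-1R1 eRestore mice, and 6 and 4 IL-1R1 nRestore mice. Both sexes were used (98 male, 102 female), except in the IL-1R1 nRestore groups at 72 h, in which all mice were male. Ages ran from 3.3 to 5.17 months at 9 h, from 4.3 to 7.4 months at 24 h and from 4.5 to 7.67 months at 72 h. The mice came from 8 labelled experiments, 0 of which held mice of 9 h and mice of a later time.

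Metabotropic glutamate receptors are G protein-coupled receptors that respond to glutamate over slower times than the ion channel receptors. Group I, here Grm5, couples through Gq to phospholipase C and calcium release, mostly at the edge of the postsynaptic density. Group II (Grm2 and Grm3) and group III (Grm4, Grm7 and Grm8) couple through Gi/o, lower cyclic AMP and limit transmitter release from the terminals on which they sit. Grm3 is also the main group II receptor of astrocytes, and Grm7, which has a low affinity for glutamate, sits within the active zone.

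In GENCODE vM39 (GRCm39), Grm8 lies at chr6:27275118-28135177 on the minus strand and Grm7 at chr6:110622542-111544191 on the plus strand. Grm3 is at chr5:9534069-9776088 (minus), Grm2 at chr9:106520294-106533870 (minus), Grm4 at chr17:27641361-27740377 (minus) and Grm5 at chr7:87233376-87784594 (plus). Short annotated genes overlap each of them, 5 on the same strand for Grm5 and 3 for Grm8, and the strandedness of the counting is not given in the sources used here, so reads of such neighbours cannot be told apart from those of the receptor.

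The promoters of 4 members are in the RefSeq promoter table used here (GRCm38.p6), and the 250 bases before the outermost start are shown for all 4. They include Grm8 and Grm3, the receptors with the largest decreases after CHI, and Grm2, the one that differed most with the collection time. Capitals mark the only motif found, TGANTCA, the AP-1 motif. The windows are chr6:28135147-28135396 (minus) for Grm8, chr5:9725353-9725602 (minus) for Grm3, chr6:110645262-110645511 (plus) for Grm7 and chr9:106656110-106656359 (minus) for Grm2.
Grm8: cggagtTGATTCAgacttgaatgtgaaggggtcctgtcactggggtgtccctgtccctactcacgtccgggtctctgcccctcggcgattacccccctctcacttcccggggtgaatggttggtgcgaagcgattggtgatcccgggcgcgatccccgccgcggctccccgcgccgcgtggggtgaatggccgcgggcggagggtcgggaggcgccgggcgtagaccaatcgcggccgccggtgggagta
Grm3: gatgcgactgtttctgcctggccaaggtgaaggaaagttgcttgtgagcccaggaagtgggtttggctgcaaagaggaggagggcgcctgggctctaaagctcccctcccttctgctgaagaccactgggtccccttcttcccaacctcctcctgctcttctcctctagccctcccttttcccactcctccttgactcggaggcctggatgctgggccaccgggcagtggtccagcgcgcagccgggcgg
Grm7: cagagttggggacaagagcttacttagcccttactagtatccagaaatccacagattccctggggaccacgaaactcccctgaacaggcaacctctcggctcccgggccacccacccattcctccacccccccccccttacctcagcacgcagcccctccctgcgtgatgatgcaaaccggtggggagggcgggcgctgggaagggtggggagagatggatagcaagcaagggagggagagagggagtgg
Grm2: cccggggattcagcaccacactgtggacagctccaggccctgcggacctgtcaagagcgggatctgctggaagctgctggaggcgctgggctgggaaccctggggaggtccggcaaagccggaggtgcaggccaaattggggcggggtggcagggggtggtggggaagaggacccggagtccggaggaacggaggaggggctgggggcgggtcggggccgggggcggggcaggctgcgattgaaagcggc

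The GC content of these windows was 68.4% for Grm8, 62.4% for Grm3, 62.0% for Grm7 and 71.2% for Grm2, and the median over 27025 promoters was 52.0%. Both strands were searched. TGANTCA was in 6.85% of all promoter windows of this length and in the window of Grm8. The CREB motif TGACGTCA (1.6% of all windows), its shorter form TGACG, which the longer one contains (17.8%), the Egr motifs GCGTGGGCG (0.54%) and GCGGGGGCG (2.55%), the E-box CACGTG of the clock factors (6.04%) and the glucocorticoid response element (0.0037%) were not among the letters of these 4 windows.

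The total estimated count per mouse ranged from 14857985 to 57355676, with a median of 23524968 in CHI and 21196579.5 in sham mice at 9 h. Every member had counts in all 200 mice, with medians from 367.5 for Grm8 to 5044 for Grm5, and all 6 passed the filter on low counts in every comparison. Each sample is 1 mouse. Il1r1, the gene the strain names refer to, was read in every group as a check. In sham mice at 9 h it lay between 2.95 and 5.13 CPM (counts scaled to library size) in C57BL/6J mice (median 3.66, n = 6), between 6.09 and 14.0 in mice labelled IL-1R1 gKO (median 7.56, n = 6), between 5.32 and 16.7 in those labelled IL-1R1 eRestore (median 6.85, n = 6) and between 8.12 and 9.61 in those labelled IL-1R1 nRestore (median 8.38, n = 4). Over all sham mice it was higher than in C57BL/6J in all 3 strains (log2 difference 1.06 ± 0.13 SE, 0.77 ± 0.13 and 0.89 ± 0.14, with edgeR adjusted p = 6.06e-09, 3.07e-05 and 2.42e-06). Il1r1 was thus not lower in mice labelled IL-1R1 gKO, and a gene total does not show which exons the reads came from.

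The direction of every CHI value below rests on the surgery labels, so Gfap, a gene that astrocytes raise after brain injury, was read against them, as a gene picked after its values were seen. At 9 h in C57BL/6J mice, Gfap ran from 90.3 to 116.0 CPM in mice labelled sham (median 96.4) and from 129.9 to 424.3 CPM in those labelled CHI (median 217.8). All 15 CHI values were above the highest sham value, in the same mice in which receptors are given as lower below. Its log2 fold change was 1.12 ± 0.16 (adjusted p = 9.14e-05), and it was above 0 in 12 of 12 comparisons within a strain, 2 of which passed the test. No other measure of injury was used to check the labels of single mice.

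Levels of different receptors were compared in TPM values, which correct for transcript length. Grm5 was the highest, at 76.6 ± 15.4 TPM (SD, n = 200), followed by Grm3 at 44.1 ± 6.70, Grm7 at 23.1 ± 3.42, Grm2 at 15.4 ± 5.07, Grm8 at 9.87 ± 1.92 and Grm4 at 9.18 ± 2.10. Grm5 exceeded Grm3, and Grm3 exceeded Grm7, in all 200 mice. Grm8 and Grm4 were close, with Grm8 higher in 20 of 22 sham mice and 23 of 46 CHI mice at 9 h and in 83 of 132 mice at the later times, and a mean log2 ratio of 0.11 that was smaller than its SD of 0.30. The place of Grm2 changed with time. It was above Grm7 in 28 of 68 mice at 9 h and in 0 of 132 mice at 24 and 72 h. Over the 24 groups, the highest group mean was 2.38 times the lowest for Grm2 and between 1.43 and 1.66 times for the other members.

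**Figure D1:**
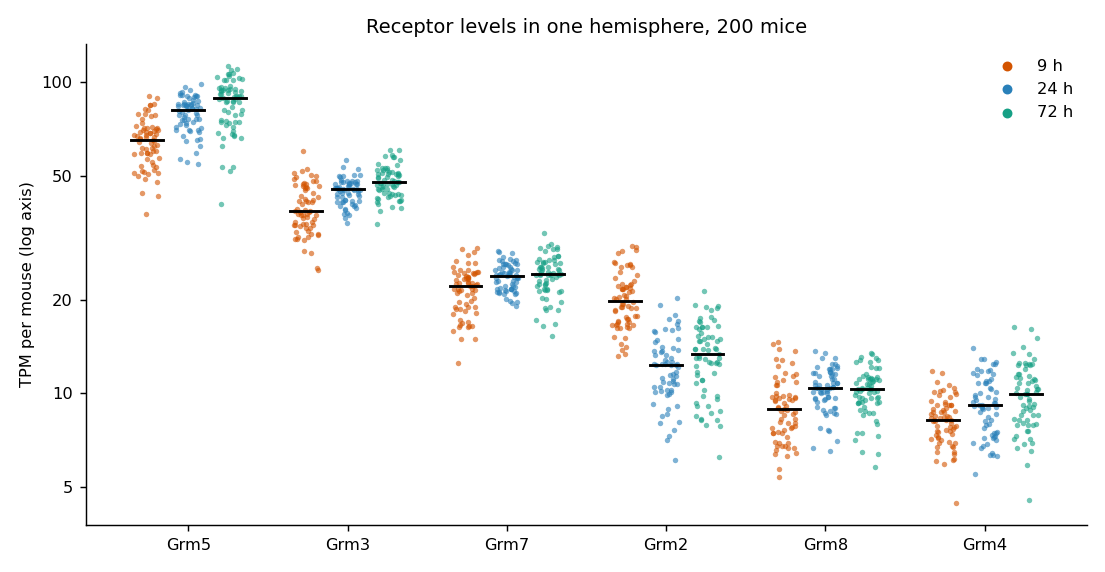
TPM of each receptor in each of the 200 mice (log axis), by hours after surgery, CHI and sham mice together; black lines are medians. Grm5 and Grm3 are the highest in every group of points, Grm8 and Grm4 overlap, and Grm2 is the only one whose 9 h points lie mostly above its later ones.

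The first question was which receptors changed after CHI, in which strain and when. At 9 h, 4 of the 6 receptors were lower in C57BL/6J mice after CHI, 2 were lower in IL-1R1 nRestore mice, and 0 passed the test in IL-1R1 gKO and IL-1R1 eRestore mice. Grm8 and Grm3 fell the most. By edgeR's test no member was higher in any of the 12 comparisons within a strain, and none passed at 24 or 72 h. At an unadjusted p under 0.05, 3 members were lower in IL-1R1 gKO and 1 in IL-1R1 eRestore mice at 9 h, where 5.58% and 13.1% of all genes were lower by the same threshold. At 24 h 2 members differed in IL-1R1 eRestore and 1 in IL-1R1 nRestore mice, beside 9.05% and 4.34% of all genes, and at 72 h 1 differed in C57BL/6J mice, beside 5.15%. DESeq2 called Grm3 lower in IL-1R1 gKO mice at 9 h, where it called 1.31% of all genes. At 24 and 72 h it called 0 members with its own size factors, but with gene-length offsets it called Grm2 higher in IL-1R1 eRestore mice at 24 h (0.40 ± 0.08, adjusted p = 0.0013), among 0.230% of all genes. That value depends on the fit of sex and age, since the group means were 27.0 CPM (CHI) and 24.63 CPM (sham). The CHI mice there were 4.9 to 7.4 months old and the sham mice 4.5 to 5.3 months. In these bulk samples, fewer cells of a type and less RNA per cell cannot be told apart. Of all genes tested with edgeR's quasi-likelihood test, 7.00% were called lower (adjusted p under 0.05) in C57BL/6J mice at 9 h, 0.126% in IL-1R1 gKO, 3.24% in IL-1R1 eRestore and 0.262% in IL-1R1 nRestore mice.

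Grm8, a presynaptic group III receptor with a high affinity for glutamate, showed the largest decrease. In C57BL/6J sham mice at 9 h it ranged from 18.8 to 25.2 CPM (median 22.6), and after CHI from 9.73 to 17.1 CPM (median 13.7). No CHI mouse (n = 15) reached the lowest of the 6 sham mice. The log2 fold change was -0.72 ± 0.09 (SE, adjusted p = 7.81e-06), a decrease to 0.608 of the sham level. In IL-1R1 nRestore mice the sham values were 17.3, 20.5, 21.2 and 25.1 CPM, and the 6 CHI values ran from 11.8 to 15.8 CPM (median 13.7). The groups again did not overlap, and the log2 value was -0.74 ± 0.11 (adjusted p = 0.00717). Without sham replicate 3 this became -0.66 and did not pass (adjusted p = 0.192). Grm8 did not pass with limma on log2 TPM in these mice either. How many of all genes separated by group in this way was not counted, here or in the comparisons below.

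The remaining strains overlapped. IL-1R1 gKO sham mice had 15.5 to 21.9 CPM of Grm8 (median 19.4) and CHI mice 10.9 to 18.7 CPM (median 14.7). Of these CHI mice, 10 of 13 were below every sham mouse, and the log2 fold change of -0.34 ± 0.10 did not pass the test (adjusted p = 0.174). IL-1R1 eRestore sham mice had 15.3 to 20.2 CPM (median 16.6) and CHI mice 11.5 to 18.2 CPM (median 15.8). Only 5 of 12 CHI mice were below every sham mouse there, and the log2 value was -0.17 ± 0.08 (adjusted p = 0.198). CHI medians of the 4 strains ran from 13.7 to 15.8 CPM and sham medians from 16.6 to 22.6 CPM. The strains were not tested against each other in sham mice of 9 h alone.

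Grm7, which is spread widely over presynaptic active zones, ranged from 37.1 to 55.9 CPM in C57BL/6J sham mice (median 50.1) and from 28.3 to 51.8 CPM after CHI (median 39.2). The groups overlapped, and 14 of 15 CHI mice were below the sham median. Its log2 fold change was -0.31 ± 0.07 (adjusted p = 0.00477). It did not pass in experiment eIL-1-80 alone (-0.25, adjusted p = 0.437) or with limma on log2 TPM (-0.29, adjusted p = 0.0954). In IL-1R1 nRestore mice the value was of the same size, -0.31 ± 0.09, and did not pass (adjusted p = 0.147). IL-1R1 gKO mice gave -0.20 ± 0.07 (adjusted p = 0.233) and IL-1R1 eRestore mice -0.09 ± 0.06 (adjusted p = 0.296).

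Grm4, the third group III receptor measured, ran from 16.6 to 26.9 CPM in C57BL/6J sham mice (median 19.2) and from 17.3 to 25.7 CPM after CHI (median 20.5). The CHI range lay within the sham range, with a log2 fold change of 0.00 ± 0.08 (adjusted p = 0.984) and a 95% interval from -0.16 to 0.17. The interval of Grm8 in the same mice, -0.90 to -0.54, lay wholly below that of Grm4, although the difference between the genes was not tested. In the other strains Grm4 gave log2 fold changes from -0.23 to -0.08, with adjusted p from 0.415 to 0.866.

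Grm3, the group II receptor shared by neurons and astrocytes, ranged from 67.4 to 93.5 CPM in C57BL/6J sham mice at 9 h (median 76.6) and from 47.1 to 70.0 CPM after CHI (median 57.4). Below every sham mouse were 14 of the 15 CHI mice. The log2 fold change was -0.44 ± 0.06 (adjusted p = 4.41e-05). In IL-1R1 nRestore mice the sham values were 73.8, 75.4, 77.2 and 77.4 CPM and the CHI values 50.5 to 59.1 CPM (median 54.8). The groups did not overlap, and the log2 fold change was -0.48 ± 0.07 (adjusted p = 0.00717). Without sham replicate 3 it was -0.51 and did not pass (adjusted p = 0.136). Nor did Grm3 pass in these mice with limma on log2 TPM.

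In IL-1R1 gKO mice Grm3 ran from 63.6 to 84.0 CPM in sham (median 70.9) and from 41.2 to 75.2 CPM in CHI mice (median 56.2). With 10 of 13 CHI mice below every sham mouse, the log2 fold change was -0.35 ± 0.08 (adjusted p = 0.0771). IL-1R1 eRestore mice had 64.6 to 75.6 CPM (sham, median 70.7) and 48.0 to 73.6 CPM (CHI, median 61.7). Here 8 of 12 CHI mice were below every sham mouse and the log2 fold change was -0.20 ± 0.07 (adjusted p = 0.0724). Neither strain passed edgeR's test, though DESeq2 called Grm3 in IL-1R1 gKO mice (adjusted p = 0.0119), edgeR called it in IL-1R1 eRestore mice without sham replicate 6 (adjusted p = 0.0408) or with experiment in place of age (-0.23, adjusted p = 0.0409), and Grm3 had the smallest adjusted p of the 6 receptors in both.

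Grm2, the second group II receptor and mainly neuronal, ranged from 32.7 to 51.9 CPM in C57BL/6J sham mice (median 38.9) and from 25.9 to 44.0 CPM after CHI (median 35.5). These ranges overlapped, with a log2 fold change of -0.18 ± 0.08 (adjusted p = 0.166). It was the only member above 0 in IL-1R1 eRestore mice at 9 h, at 0.17 ± 0.12 (adjusted p = 0.395). IL-1R1 gKO and IL-1R1 nRestore mice gave -0.14 ± 0.10 and -0.13 ± 0.11.

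Grm5, the group I receptor, ranged from 175.1 to 304.2 CPM in C57BL/6J sham mice (median 247.8) and from 162.7 to 267.2 CPM after CHI (median 199.3). Although 14 of 15 CHI mice were below the sham median, 2 were below every sham mouse. The log2 fold change was -0.30 ± 0.09 (adjusted p = 0.0309). This call did not hold without sham replicate 1, 2, 5 or 6 (adjusted p from 0.053 to 0.15), and the log2 fold change in the smaller of the experiments of these mice was -0.05. Grm5 did not pass in that experiment alone or with limma on log2 TPM. In IL-1R1 nRestore, gKO and eRestore mice Grm5 gave -0.24 ± 0.08, -0.16 ± 0.10 and -0.06 ± 0.07, with adjusted p of 0.215, 0.619 and 0.621.

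**Figure D2:**
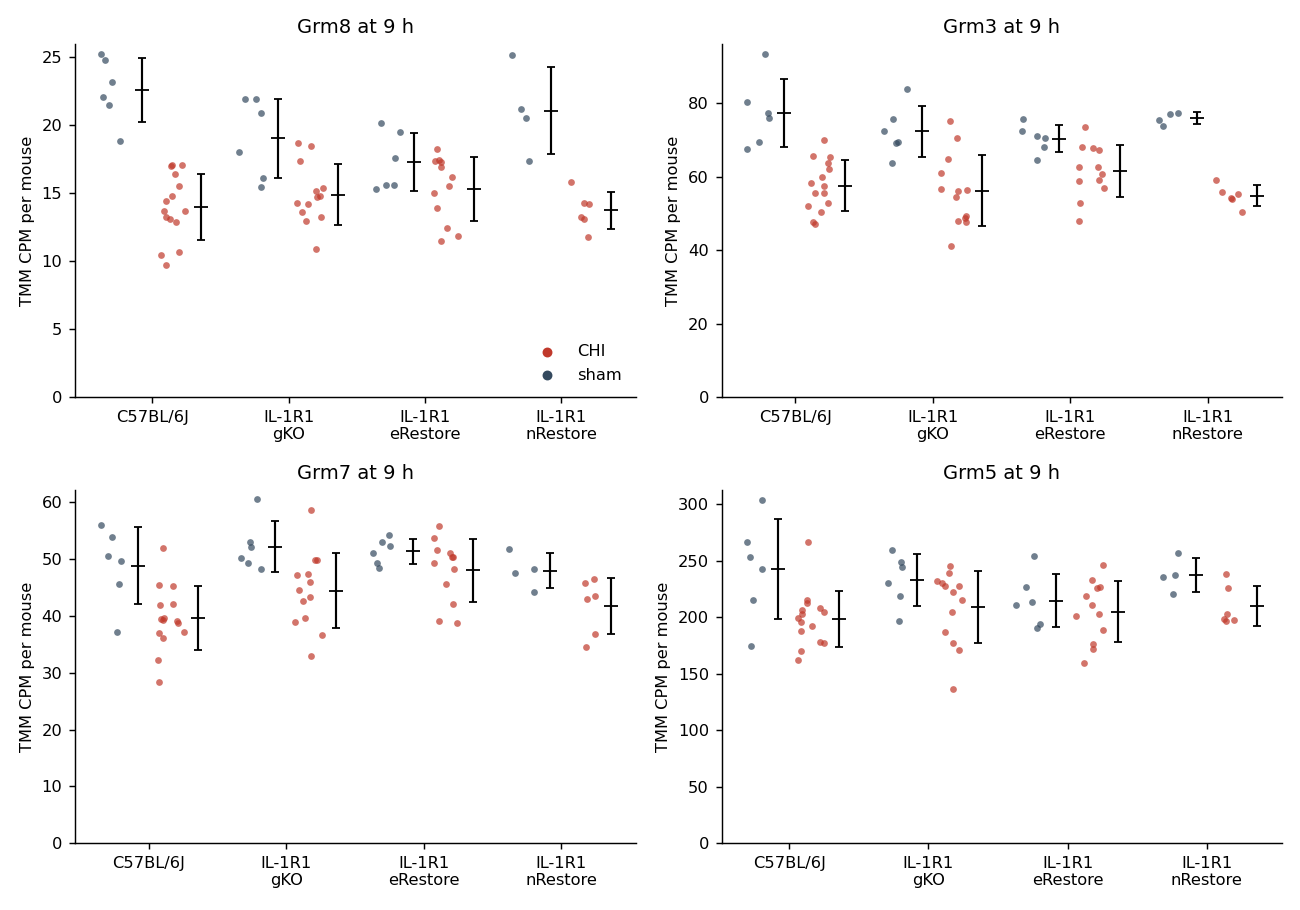
CPM of Grm8, Grm3, Grm7 and Grm5 in each mouse at 9 h by strain (grey-blue, sham; red, CHI), with the mean and SD beside each group; the axes start at 0. For Grm8 the CHI and sham points of C57BL/6J and IL-1R1 nRestore mice do not overlap, and for Grm5 they overlap in every strain.

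The differences between strains were tested directly. The CHI effect on Grm8 was less negative in IL-1R1 eRestore than in C57BL/6J mice by 0.51 ± 0.14 on the log2 scale (unadjusted p = 0.000808), and this did not pass after adjustment over all genes (adjusted p = 0.156). The same difference was 0.35 ± 0.14 for IL-1R1 gKO (adjusted p = 0.646, 95% interval 0.07 to 0.63) and 0.08 ± 0.17 for IL-1R1 nRestore mice (adjusted p = 0.995, interval -0.25 to 0.41). For Grm3 the differences from C57BL/6J mice were 0.07, 0.22 and -0.03 in IL-1R1 gKO, eRestore and nRestore mice. None of the 6 receptors passed this test at any time point. Nor did many genes: those called made up 0%, 0.0120% and 0.00600% at 9 h, 0.00599%, 0.0120% and 0% at 24 h and 0%, 0% and 0.00603% at 72 h of the genes tested for IL-1R1 gKO, eRestore and nRestore mice. A difference in which receptors passed the test in which strain is therefore not a tested difference between the strains.

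The CHI effect was also compared between the sexes over the 4 strains. At 9 h the male minus female difference lay between -0.10 (Grm7) and 0.02 (Grm8), with unadjusted p from 0.238 to 0.897. No member passed at 9, 24 or 72 h, and of all genes 0%, 0% and 0.00603% did.

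Taking the 4 strains together gave the most precise values at 9 h (46 CHI and 22 sham mice). Grm8 changed by -0.46 ± 0.06 (adjusted p = 4.96e-09), Grm3 by -0.36 ± 0.04 (adjusted p = 5.63e-10), Grm7 by -0.22 ± 0.04 (adjusted p = 5.22e-05) and Grm5 by -0.18 ± 0.05 (adjusted p = 0.00286). These 4 were called lower, as were 13.8% of all genes tested. Grm2, at -0.07 ± 0.06 (adjusted p = 0.409), and Grm4, at -0.08 ± 0.05 (adjusted p = 0.226), did not pass. The median log2 fold change of the 6 receptors was -0.20, and that of all genes tested was -0.01. Without the C57BL/6J mice, Grm5 no longer passed (adjusted p = 0.0961) and the other 3 did.

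All 3 experiments with 9 h mice gave values of the same sign for these 4 receptors. Grm3 passed in each alone, at -0.29 in eIL-1-76, -0.39 in eIL-1-80 and -0.42 in TM-2-33 (adjusted p = 0.00215, 0.000707 and 0.00411). Grm8 gave -0.41, -0.46 and -0.65, and missed the threshold in eIL-1-80 (adjusted p = 0.065). Grm7 gave -0.21, -0.21 and -0.25 and passed in eIL-1-76 alone. Grm5 gave -0.24, -0.04 and -0.22 and likewise passed only in eIL-1-76. Mice labelled IL-1R1 nRestore at 9 h came from 1 experiment, so no value between experiments exists for them.

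The composition of the hemispheres was read from marker genes, as TPM summed per mouse. Defining markers of neurons and astrocytes were present in every mouse, and the sums were close in CHI and sham mice at 9 h. Neuronal markers summed to 4974 to 8081 TPM (median 6623) in CHI and 5637 to 7643 (median 6368) in sham mice, and astrocyte markers to 1053 to 1592 (median 1292) and 1076 to 1435 (median 1259). Single astrocyte genes did change, with 2 of 7 called higher, Gfap among them, and 2 lower over the 4 strains (log2 fold changes from -0.14 to 0.78). Other lists moved with CHI. Over the 4 strains, 12.7% of all genes were called higher and 13.8% lower. Choroid plexus markers ran from 5.24 to 2532 TPM (median 25.6) in CHI and from 10.4 to 6296 TPM (median 49.8) in sham mice, and 6 of 6 genes were called lower over the 4 strains. None was called within a strain, and in IL-1R1 nRestore mice the fold changes had the other sign (median 1.07 on the log2 scale). Of the striatum markers, 5 of 8 were called lower, with sums of 206.2 to 1157 TPM (median 405.2) against 181.7 to 1440 TPM (median 478.7). Of the microglia markers, 4 of 6 were called lower (sums of 150 to 402 TPM, median 264, against 222 to 443 TPM, median 289). Of the endothelial markers, 3 of 5 were called higher and 1 lower (sums of 148.9 to 337.3 TPM, median 233.2, against 134.3 to 262.7 TPM, median 203.2), and of the Purkinje cell markers both that were tested were lower (40.6 to 89.04 TPM, median 65.3, against 47.2 to 117.1 TPM, median 81.1), with Pcp2 and Ppp1r17 at a median under 1 TPM.

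The same lists were read at 9 h in C57BL/6J mice alone, which had the most receptor calls. Of all genes, 7.05% were called higher and 7.00% lower in these mice. Microglia markers had a median sum of 234.7 TPM in CHI and 289.1 TPM in sham mice, with 3 of 6 genes called lower (median log2 fold change -0.33). Purkinje cell markers had 54.8 and 84.3 TPM (1 of 3 tested lower) and endothelial markers 261.3 and 219.1 TPM (2 of 5 higher, 1 lower). Neuronal markers, with 6920 and 6719 TPM, had 1 of 7 genes called lower, and astrocyte markers, with 1244 and 1127 TPM, had 2 of 7 called higher. No striatum marker was called (273.1 and 259.9 TPM, median log2 fold change -0.45).

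With the striatum score as a further covariate, Grm8, Grm3, Grm7 and Grm5 gave -0.46, -0.37, -0.24 and -0.15 over the 4 strains and all passed the test. With the choroid plexus score in its place they gave -0.45, -0.37, -0.24 and -0.20 and again passed. Grm2 crossed the threshold narrowly with the striatum score (-0.14, adjusted p = 0.04998). Each score is a mean of log2 CPM over the list. The choroid plexus score, and both scores within strains, were added after the data had been seen. In IL-1R1 nRestore mice Grm8 gave -0.62 with the striatum score and no longer passed (adjusted p = 0.101). The part of microglia, endothelium and Purkinje cells in these results was not tested.

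At 24 and 72 h no receptor passed edgeR's test, and the groups overlapped in all 48 comparisons of a receptor within a strain. Surgery was uneven over the experiments at 24 h, with 18 CHI and 1 sham mouse in NiL-1-21 and 8 CHI and 12 sham mice in NiL-1-24. The main fits held sex and age but not experiment, so surgery and experiment cannot be fully told apart at 24 h. Over the 4 strains, the log2 fold changes lay between -0.06 (Grm3) and 0.09 (Grm2) at 24 h, and between -0.03 (Grm3) and 0.09 (Grm2) at 72 h. For Grm8 the 95% interval was -0.06 to 0.14 at 24 h and -0.12 to 0.06 at 72 h, and for Grm3 it was -0.13 to 0.01 and -0.10 to 0.04. In C57BL/6J mice Grm8 ran from 16.0 to 19.9 CPM after CHI (median 18.5) and from 16.5 to 22.1 CPM in sham mice (median 17.6) at 24 h. Its log2 fold change there was 0.00 ± 0.06. In 4 of the 48 comparisons most CHI mice lay on one side of all sham mice, and the share of all genes that did so was not counted. Grm7 was below every sham mouse in 10 of 14 C57BL/6J mice at 72 h (log2 fold change -0.13 ± 0.06, adjusted p = 0.908). In IL-1R1 eRestore mice, Grm5 was above every sham mouse in 7 of 9 at 24 h (0.13 ± 0.06, adjusted p = 0.514), Grm4 below in 6 of 9 at 24 h (-0.01 ± 0.10, adjusted p = 0.984) and Grm3 below in 7 of 12 at 72 h (-0.15 ± 0.08, adjusted p = 0.882). For Grm4 the group means were 22.01 CPM (CHI) and 25.02 CPM (sham), so the value near 0 depends on the fit of sex and age. The largest log2 fold change by edgeR at these times was 0.30 ± 0.11 for Grm8 in IL-1R1 nRestore mice at 24 h, which did not pass (adjusted p = 0.955). It depends on the fit of sex and age, since the group means were 17.6 CPM (CHI) and 16.35 CPM (sham). The CHI mice there were 4.3 to 7.2 months old and the sham mice 4.3 to 5.3 months. Of all genes, the test called 0.404%, 0.00590%, 0% and 0% at 24 h and 0%, 0%, 0.00605% and 0.0121% at 72 h, in the order C57BL/6J, gKO, eRestore and nRestore. Over the 4 strains it called 1.96% at 24 h and 0.717% at 72 h.

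**Figure D3:**
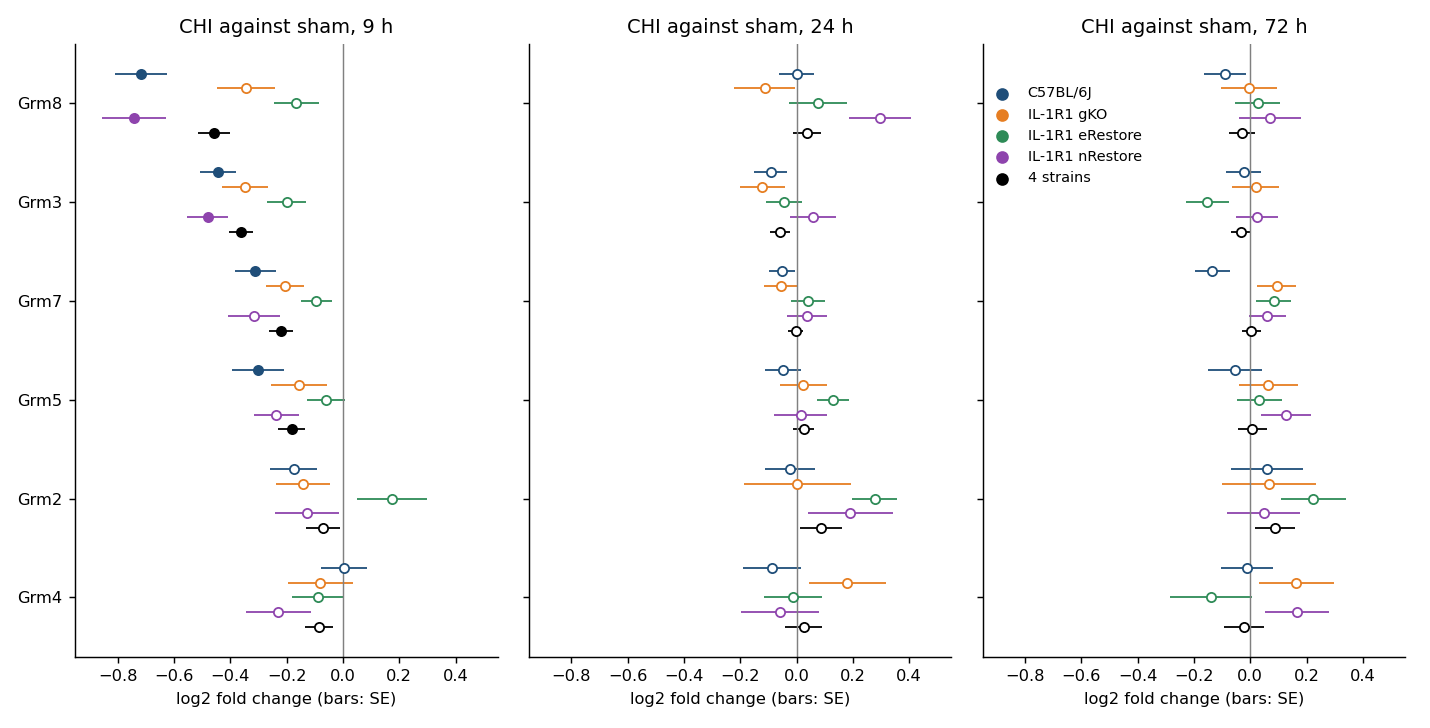
Log2 fold change (CHI minus sham, with SE bars) of the 6 receptors at 9, 24 and 72 h, by strain and over the 4 strains; filled points passed the edgeR test at an adjusted p under 0.05. Filled points are seen at 9 h only, for Grm8, Grm3, Grm7 and Grm5, all to the left of 0.

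The decrease at 9 h differed from the effect at the later times by test. Over all 200 mice the CHI effect at 9 h minus that at 24 h was -0.46 ± 0.08 for Grm8 (adjusted p = 6.63e-07), -0.31 ± 0.05 for Grm3 (6.60e-06), -0.19 ± 0.05 for Grm7 (0.00513) and -0.21 ± 0.07 for Grm5 (0.0216). Against 72 h the same 4 receptors passed, with -0.44, -0.31, -0.21 and -0.19. Of all genes, 6.53% and 7.92% had a lower effect at 9 h by these tests. In C57BL/6J mice alone Grm8 (-0.71 and -0.62) and Grm3 (-0.36 and -0.41) passed both, among 2.34% and 3.35% of genes. In IL-1R1 nRestore mice Grm3 passed both (-0.55 and -0.50), among 0.0273% and 0.0654% of genes, while Grm8, at -0.76 ± 0.19 and -0.65 ± 0.19, did not (adjusted p = 0.112 and 0.163). The effects at 24 and 72 h differed by -0.05 (Grm2) to 0.03 (Grm8), each with an adjusted p of 0.999. Since experiments did not span 9 h and the later times, experiment and time cannot be told apart here, and the mice of 9 h were collected at another time of day.

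Grm2 showed a difference of another kind, between collection times in the control mice. Sham mice at 9 h had 31.1 to 62.2 CPM of Grm2 (median 40.5, n = 22), those at 24 h 11.4 to 29.0 CPM (median 22.1, n = 22) and those at 72 h 16.7 to 32.2 CPM (median 22.7, n = 23). Of the 22 sham mice at 9 h, 21 were above all 45 later ones. The log2 difference was -0.97 ± 0.08 for 24 minus 9 h (adjusted p = 3.12e-16) and -0.90 ± 0.07 for 72 minus 9 h (adjusted p = 7.43e-15), and 0.07 ± 0.08 between 24 and 72 h (adjusted p = 0.922). CHI mice had the same order, with medians of 40.2, 22.3 and 24.9 CPM.

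The other receptors differed much less between the sham groups. Grm8 was lower at 24 and 72 h by 0.17 and 0.18 on the log2 scale, Grm3 by 0.11 at 24 h and Grm7 by 0.09 at 72 h, and Grm5 was higher by 0.14 at 72 h. These passed the test and Grm4 did not. The background of this comparison was large, since 48.9% of all genes differed between 24 and 9 h and 46.8% between 72 and 9 h, against 0.0300% between 72 and 24 h. The tissue differed as well. Striatum markers summed to a median of 405 TPM in CHI and 479 TPM in sham mice at 9 h, and over all later mice ran from 726 to 2159 TPM (median 1361, n = 132), while neocortex markers had medians of 468 and 442 TPM at 9 h and 335 TPM later.

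With the striatum score as a covariate, Grm2 differed by -0.85 ± 0.10 and -0.77 ± 0.10 (adjusted p = 1.06e-08 and 4.17e-07) and Grm8 by -0.31 and -0.33. The other 4 receptors did not pass, and Grm5, which had been higher at 72 h, took the other sign (-0.08 ± 0.07 and -0.05 ± 0.07, adjusted p = 0.388 and 0.629). In this fit, which was added after the data had been seen, 32.3% and 27.6% of genes were called. Time of day, experiment, age and the tissue taken cannot be told apart as sources of the difference in Grm2. Between strains, none of the 6 receptors passed the test in sham mice. The largest of these values was 0.23 ± 0.08 for Grm2 in IL-1R1 eRestore against C57BL/6J mice (adjusted p = 0.103), where 4.83% of all genes were called, against 4.90% in IL-1R1 gKO and 17.0% in IL-1R1 nRestore mice.

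**Figure D4:**
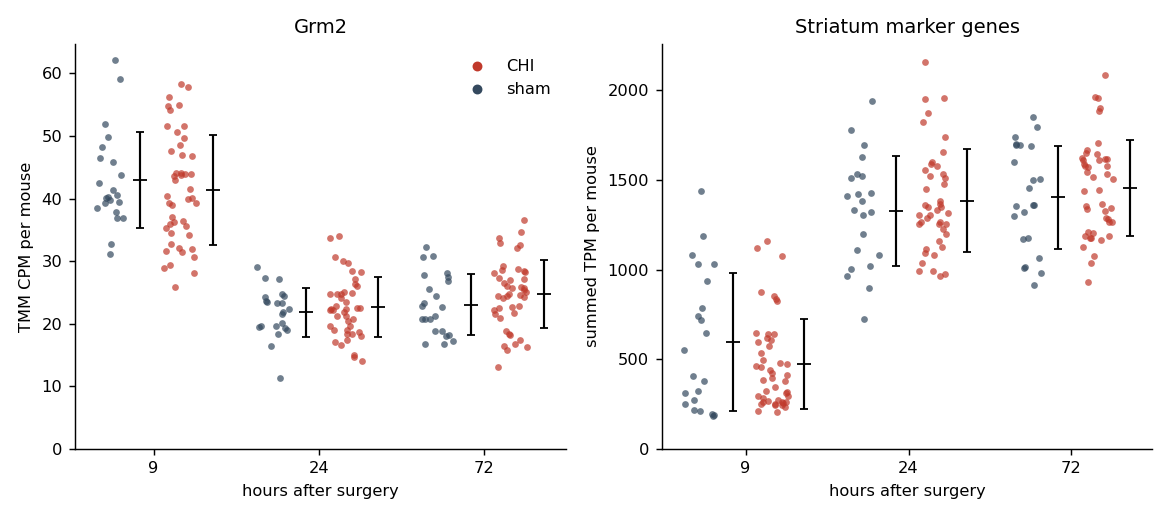
Left, CPM of Grm2 in each mouse by hours after surgery (grey-blue, sham; red, CHI), with mean and SD. Right, the summed TPM of 8 striatum markers in the same mice. Grm2 lies higher and the striatum sum lower at 9 h than at 24 and 72 h in both surgery groups.

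The genes with the profile most like each receptor were found by Pearson's r of log2(CPM + 1) over the 200 mice among 14618 genes, as a description. For Grm2 these were Zdhhc8 (0.921), Olfm2 (0.92) and Dact2 (0.918), and for Grm5 Dgkb (0.84), Ncam2 (0.829) and Tenm1 (0.827). The points share libraries and the split between 9 h and later mice. Weaker likeness was found for Grm3 (Gm21955, Sh3glb1 and Akt2, 0.744 to 0.657), Grm4 (Cnst, Acly and Epb41l3, 0.721 to 0.698), Grm7 (Agfg1, Brinp3 and Gbf1, 0.694 to 0.68) and Grm8 (Npepps, Caprin1 and Tcaf1, 0.691 to 0.633). Among the receptors the highest value was between Grm7 and Grm8 (0.603).

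The proteins around the receptors were taken from 8 hand-written lists, of which 79 genes were tested. In C57BL/6J mice at 9 h, 4 of them were called higher and 10 lower, with a median log2 fold change of -0.05, beside a median of -0.01 over all genes, of which 7.05% were called higher and 7.00% lower. Over the 4 strains 11 were higher and 15 lower (median -0.04), and 12.7% of all genes were called higher and 13.8% lower. The balance was the other way in IL-1R1 eRestore mice, with 10 higher and 5 lower (median 0.03) where 4.10% of all genes were called higher and 3.24% lower, while 0 were called in IL-1R1 gKO mice and 1, lower, in IL-1R1 nRestore mice (0.262% of all genes lower). The named genes below are those with the smallest p in each list over the 4 strains.

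Next to group I, Homer1, which ties Grm5 to the postsynaptic density, was lower by 0.26 ± 0.05 on the log2 scale (adjusted p = 0.000198), and the scaffold gene Shank1 by 0.18 ± 0.04, whereas Ncdn, which encodes a protein that binds Grm5, was higher by 0.11 ± 0.04. These were the 3 of 11 scaffold genes called. Beside this and the lists that follow, 12.7% of all genes were called higher and 13.8% lower. Of 13 genes of the Gq branch, the channel gene Trpc5 (-0.40 ± 0.09) was called lower and Gna11, a Gq family subunit, higher (0.08 ± 0.03). Plcb3 and Prkca gave -0.10 and 0.11 and did not pass. Among 8 genes of local translation, Arc (-1.06 ± 0.17), Fmr1 (-0.20 ± 0.03) and the phosphatase gene Ptpn5 (-0.12 ± 0.04) were lower, and 2 were higher, with the kinase gene Eef2k at 0.33 ± 0.04.

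On the Gi/o side of groups II and III, 2 of 14 genes were higher and 2 lower over the 4 strains. Adenylyl cyclase genes moved in both directions, with Adcy9 at 0.38 ± 0.05 and Adcy8 at -0.52 ± 0.08 (adjusted p = 4.69e-09 and 4.02e-07). So did the subunits of the G protein-gated potassium channels, Kcnj6 (0.26 ± 0.06) and Kcnj3 (-0.17 ± 0.04). Of 7 RGS genes, whose products end G protein signals, Rgs20 (-0.29), Rgs8 (-0.23) and Rgs7 (-0.15) were lower and Rgs2 (0.18) was among 2 higher. At the terminal, 2 of 9 genes were lower: Rims1 (-0.20 ± 0.05), an active zone scaffold, and Elfn1 (-0.20 ± 0.05), a postsynaptic protein that recruits group III receptors across the synapse, while Grip1 and Pick1 gave -0.16 and -0.11 and did not pass.

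Of 6 genes of receptor kinases and arrestins, which switch receptors off, Grk5 was lower (-0.50 ± 0.05, adjusted p = 2.79e-12) and Arrb1 (0.14), Grk3 (0.18) and Arrb2 (0.20) were higher. In C57BL/6J mice Grk5 gave -0.74 ± 0.09 (adjusted p = 4.17e-06), near the value of Grm8 in the same mice. Among 11 genes of glutamate transport and supply only Slc7a11, the cystine and glutamate exchanger, was called (-0.49 ± 0.07, adjusted p = 2.29e-08). Slc17a7, Slc1a2 and Folh1 gave 0.13, -0.07 and -0.17 and did not pass.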

How the data were processed

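Poly(A) libraries were made from 1 hemisphere per mouse. The authors aligned reads to GRCm39 with STAR, quantified them with Salmon in nf-core/rnaseq, and deposited estimated counts per gene and TPM per gene. The annotation release and the strandedness are not given in the sources used here. Estimated counts were rounded. A gene was tested where its count reached 10 in a number of mice equal to the smaller surgery group. The test was edgeR 4.0.16 (TMM factors, robust quasi-likelihood test, R 4.3.3), with sex and age as covariates (age alone in IL-1R1 nRestore mice at 72 h) and strain where strains were joined. Comparisons among sham mice, between times and between strains, were fitted with strain, sex and time point and without age, which followed the time point. P-values were adjusted by Benjamini-Hochberg over all genes tested, at 0.05. CPM are scaled by TMM factors, and intervals are 1.96 SE to each side. Alternatives used DESeq2 1.42.0, limma 3.58.1 on log2(TPM + 0.1), other filters and covariates, single experiments, and leaving out sham mice or strains. The scripts were tested on simulated data. With the C57BL/6J mice of 9 h as the design, 56 of 100 genes changed by 0.4 on the log2 scale were recovered, and 99 of 100 changed by 0.7. With the IL-1R1 nRestore mice of 9 h, 9 of 100 and 68 of 100 were recovered, so most changes of 0.4 were missed there.

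The members and lists were chosen with earlier results of these data known. All 6 members were named in every comparison, up to 4 genes of each partner list by smallest p over the 4 strains at 9 h, and the 3 most correlated genes of each member among those with a mean of at least 1 CPM. Gene positions came from GENCODE vM39 and promoter sequences from RefSeq.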

Additional observations from a re-analysis of the deposited data

Results flagged for a closer look

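Each of the 6 receptors was read in the 16 groups of 4 to 10 mice, 12 of them sham groups. In 6 of these 96 tests, which share mice, 1 mouse lay far from the rest of its group by Dixon's criterion, which chance meets in about 1 test in 20. All 6 values were low and from sham groups. Grm3 was 59.7 CPM in a C57BL/6J mouse at 24 h (the others 70.6 to 74.2) and 50.2 CPM in an IL-1R1 gKO mouse at 72 h (66.2 to 74.3). Grm5 was 186.3 CPM in an IL-1R1 gKO mouse at 24 h (242.9 to 265.0) and 233.3 CPM in an IL-1R1 eRestore mouse at 24 h (253.8 to 261.5). Grm4 was 11.8 CPM in an IL-1R1 nRestore mouse at 72 h (19.7 to 22.9), and Grm8 was 13.0 CPM in an IL-1R1 eRestore mouse at 72 h (19.7 to 20.3).

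The CHI effect differed between 9 h and a later time in 14 tests. Over the 4 strains, the effect at 9 h minus that at 24 h was -0.46 for Grm8, -0.31 for Grm3, -0.21 for Grm5 and -0.19 for Grm7, and against 72 h it was -0.44, -0.31, -0.19 and -0.21. In C57BL/6J mice Grm8 gave -0.71 and -0.62, and Grm3 -0.36 and -0.41. In IL-1R1 nRestore mice Grm3 gave -0.55 and -0.50. No receptor passed in IL-1R1 gKO or IL-1R1 eRestore mice. The effect at 9 h was lower for 6.53% and 7.92% of all genes over the 4 strains. In C57BL/6J mice this held for 2.34% and 3.35%, and in IL-1R1 nRestore mice for 0.0273% and 0.0654%. No experiment held mice of 9 h and of a later time.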

How the results depend on the processing

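The counts of members called changed by over 1.5 times under 13 of the alternatives (220 others did not). In C57BL/6J mice at 9 h, 4 members became 2 in experiment eIL-1-80 alone and 2 with limma on log2 TPM, and 3 to 4 without each sham mouse in turn. IL-1R1 gKO mice at 9 h had 1 with DESeq2, with or without length offsets. IL-1R1 eRestore mice had 1 at 9 h with experiment in place of age, 0 to 1 without each sham mouse, and 1 at 24 h with DESeq2 and length offsets. IL-1R1 nRestore mice at 9 h had 0 with limma, 1 with the striatum score and 0 to 2 without each sham mouse. Over the 4 strains at 9 h, 4 became 1 in eIL-1-80 alone and 2 in TM-2-33 alone. With the striatum score, 4 members differing in sham mice between 72 and 9 h became 2. Of values that had passed, the sign turned for Grm5 in sham mice at 72 minus 9 h, which became -0.0512 with the striatum score. Not passed before or after were Grm5 (-0.0818) and Grm4 (-0.126) at 24 minus 9 h and Grm4 (-0.0972) at 72 minus 9 h in the same fit. The other signs that turned were also of values that had not passed. Grm4 in C57BL/6J mice became -0.0152 with DESeq2 and length offsets, -0.00631 with limma and -0.0130 with the striatum score, and ran from -0.0575 to 0.0840 without each sham mouse (-0.0575, -0.00768 and -0.0346 without sham replicates 2, 4 and 5). Grm4 became 0.23 in eIL-1-76 alone and 0.00567 with the choroid plexus score in IL-1R1 gKO mice, and 0.0107 in eIL-1-76 alone over the 4 strains. In IL-1R1 eRestore mice Grm2 became -0.0505 in eIL-1-80 alone and Grm5 0.00768 with the striatum score. The causes were not tested, but single experiments and left-out mice hold fewer samples. The genes called at 9 h numbered 2385 in C57BL/6J mice (279 in eIL-1-80 alone, 1226 in the largest experiment alone and 1290 with limma), 33 in IL-1R1 gKO mice (218 with DESeq2), 1222 in IL-1R1 eRestore mice (1991 with DESeq2) and 102 in IL-1R1 nRestore mice (399 with DESeq2 and 6 with limma). No paired analysis was possible because replicate numbers do not link mice across groups.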
